A study of Arabidopsis thaliana with 2 samples.

Results

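Of the 2931 peaks deposited for MYB3R3-GFP in Arabidopsis seedlings, 106 lay in the pericentromeric regions. A peak was taken as pericentromeric when its midpoint was within 2.5 Mb of a fixed centromere position on TAIR10, which was 15.1 Mb on chromosome 1, 3.6 Mb on chromosome 2, 13.7 Mb on chromosome 3, 3.9 Mb on chromosome 4 and 11.7 Mb on chromosome 5. The rule used position alone, and the other 2825 peaks served for comparison. The peaks came from 1 chromatin immunoprecipitation (ChIP) library, made with an antibody against green fluorescent protein (GFP) from whole Col-0 seedlings that expressed MYB3R3 fused to GFP. The seedlings were 9 days past germination, grew in liquid MS medium with sucrose under continuous light and received no treatment. The labels do not give the promoter of the fusion, the number of lines or whether the plants kept their own MYB3R3. The input library of the same plants was not analysed here. With 1 library and 1 peak list there was no replicate error and no test of a difference was made, since peaks and genes are not replicates. The 95% intervals below cover counting error only, and the read depth of the library is unknown.

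MYB3R proteins are MYB transcription factors with 3 repeats that bind promoters of genes of the mitotic cell cycle, and MYB3R3 is known mainly as a repressor of such genes outside mitosis. The pericentromeres of Arabidopsis flank the satellite arrays of the centromeres and are known as heterochromatin, rich in transposons and DNA methylation and poor in genes. Chromosome 2 is known to carry a large insertion of mitochondrial DNA beside its centromere.

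The gene content of the windows fitted their label. They held 85.7 protein-coding genes per Mb, against 268.8 per Mb elsewhere. The gene table labels 3917 genes as pseudogenes and 926 as transcribed pseudogenes, and both are called pseudogenes here. Whether transposon genes are among them was not checked. Of these 4843, 3455 (71.3%) lay in the windows, although the windows made up 21.0% of the chromosomes. Of the 27444 protein-coding genes, 2143 (7.81%) lay there.

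Peaks were fewer in the windows than their genes alone would give. The windows held 4.95 peaks per 100 protein-coding genes, and the rest of the genome 11.2. The ratio was 0.443 (exact interval 0.361 to 0.538), a 2.26-fold lower density per gene. Per Mb the gap was wider, with 4.24 peaks in the windows and 30.0 elsewhere.

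Each of the 5 chromosomes showed the lower density. The window of chromosome 3 had the fewest peaks, 12 for 327 genes, or 3.67 per 100 genes. The window of chromosome 4 had the most, 34 for 487 genes, or 6.98 per 100 genes. Those of chromosomes 1 and 2 held 21 peaks each (5.04 and 4.09 per 100 genes), and that of chromosome 5 held 18 (4.51 per 100 genes). The ratio to the rest of the same chromosome ran from 0.318 on chromosome 3 to 0.653 on chromosome 4, and the exact interval of the latter, 0.446 to 0.928, lay just below 1. On chromosome 4 the side with lower coordinates held 8.30 peaks per 100 genes and the other side 5.81. The sparsest side of any window was that with higher coordinates on chromosome 5, with 4 peaks for 136 genes.

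**Figure D1:**
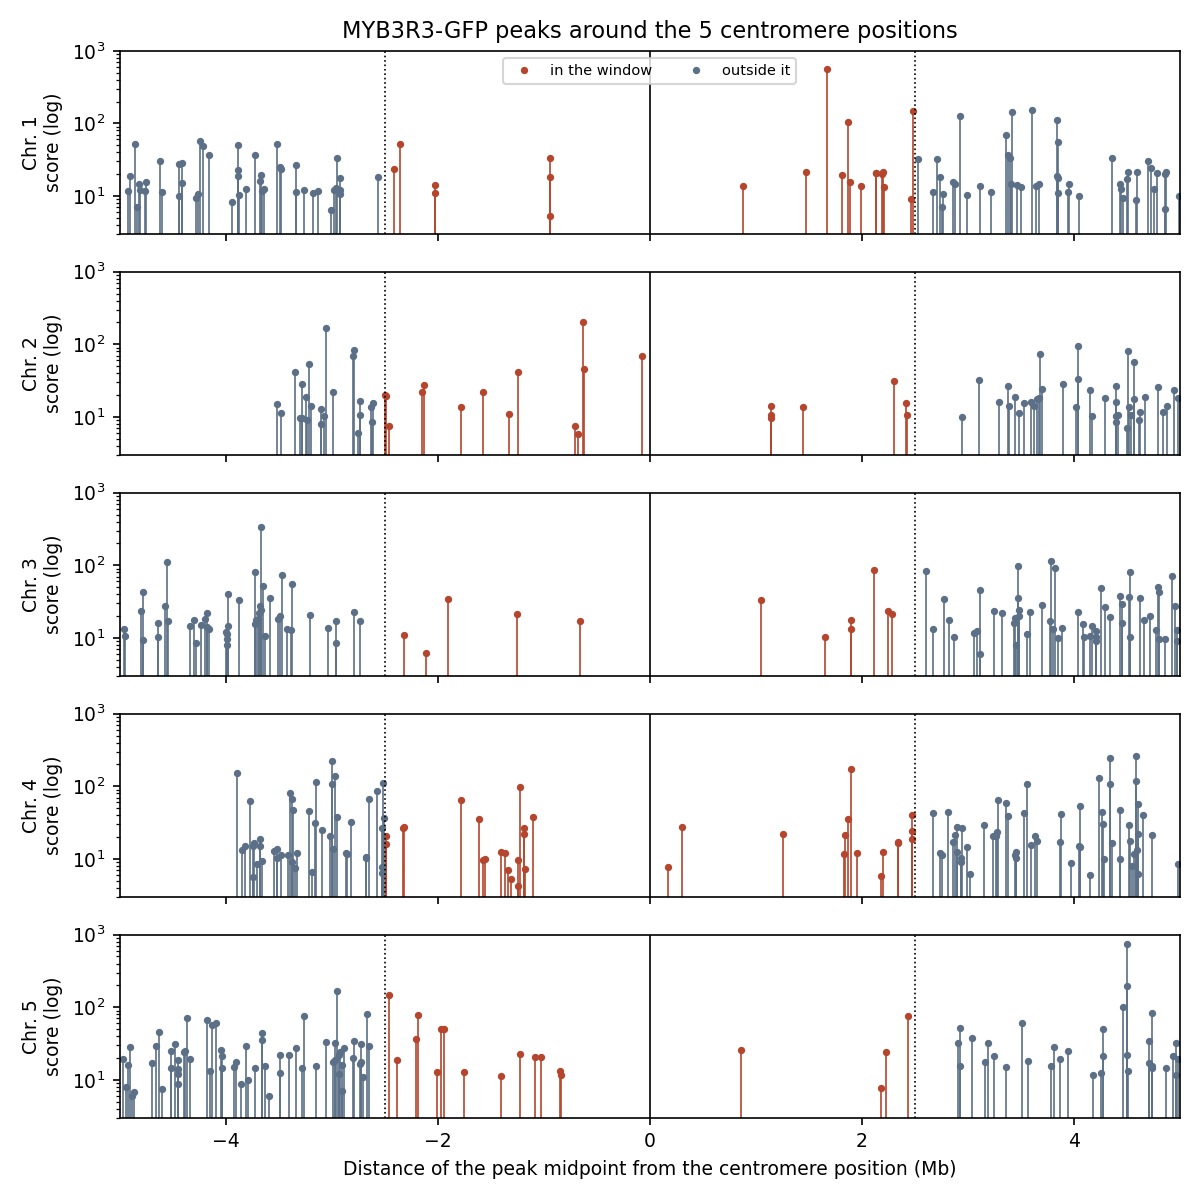
Score (log axis) of every peak against the distance of its midpoint from the centromere position in Mb, for the 5 chromosomes, out to 5 Mb on each side; red points lie in the windows, grey-blue points outside, and dotted lines mark the window edges at 2.5 Mb. The 106 red points are sparse, with a stretch of over 1 Mb without a peak at the centromere position of each chromosome.

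Counted by gene, 95 of the 2143 protein-coding genes in the windows had a peak at an end (4.43%, Wilson interval 3.64 to 5.39%), where an end reaches from 1000 bp outside to 200 bp inside the gene. Over the whole genome 13.1% of protein-coding genes had one, and elsewhere 3487 of 25301 did (13.8%, 13.4 to 14.2%). A peak that touched the ends of several genes counted for each of them, and the intervals treat such genes as separate. Assignments were less crowded in the windows. There 61 of 106 peaks (57.5%) touched the end of 1 gene and 21 (19.8%) touched 2 or more genes, against 38.3% and 46.2% of the peaks elsewhere. The remaining 24 peaks in the windows (22.6%) touched no gene end, against 15.5% elsewhere. How much shared peaks add to the gap in shares by gene was not tested.

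The share of genes with a peak was low up to the edge of the windows and higher beyond it. In the first Mb from the centromere position 12 of 391 genes had a peak (3.07%), in the second 37 of 929 (3.98%), and in the third, which the window edge divides, 134 of 1859 (7.21%). It was 10.1% at 3 to 4 Mb, 12.7% at 5 to 6 Mb, 11.2% at 6 to 7 Mb, 15.9% at 9 to 10 Mb, 13.6% at 10 to 11 Mb and 23.9% (20.4 to 27.9%) at 15 to 16 Mb. The share was thus higher farther out along the arms, with dips between neighbouring bins. These bins pool the chromosomes, whose arms differ in length, so the outer bins do not hold all of them. On each of the 5 chromosomes the window had a lower share (3.06 to 5.34%) than the genes at 2.5 to 5 Mb (8.66 to 13.5%), and the share beyond 10 Mb was higher than both (15.0 to 18.6%). The share at 5 to 10 Mb was above that at 2.5 to 5 Mb on 4 chromosomes and below it on chromosome 4 (12.6% and 13.5%).

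Within the windows the first 0.5 Mb was the emptiest, with 3 peaks for 189 genes, or 1.59 per 100 genes. From there to the edge the density was between 4.25 and 6.44 per 100 genes in each step of 0.5 Mb, with no steady rise. These steps pool the chromosomes, and any genes of the mitochondrial insertion on chromosome 2 were counted with the rest. By gene, 46 of 823 had a peak in the last 0.5 Mb inside the edges (5.59%, 4.22 to 7.37%) and 88 of 1036 in the first 0.5 Mb outside (8.49%, 6.95 to 10.3%), and these intervals overlapped. In the last 0.1 Mb inside the edges there were 15 peaks, and in the first 0.1 Mb outside there were 8. Genes were not counted for these 0.1 Mb steps, so these counts give no density per gene. The 3 peaks just inside the edge had scores of 20.4 (AT2G03630), 19.4 (AT2G03667) and 20.6 (XTH9), and the 3 just outside had 37.2 (AT4G03130), 110.3 (AT4G03113) and 6.43 (AT4G03100).

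The shares also differed at like local gene number. In stretches of 100 kb with 16 to 20 protein-coding genes, 3.47% of the genes in the windows (2.08 to 5.73%, n = 404) and 8.49% elsewhere (7.17 to 10.02%, n = 1473) had a peak at an end. With 21 to 25 genes the shares were 7.12% and 13.2%, and with 26 to 30 genes 5.26% and 13.7%. In sparser stretches, few of which lie elsewhere, the intervals overlapped. With 11 to 15 genes the shares were 4.26% (n = 399) and 7.36% (n = 163). The 36 window genes in stretches of over 30 genes had no peak, which allows a share of up to 8.33%. Set against the rates elsewhere in stretches of like gene number, the windows held 95 peaks where 169.7 were expected, a ratio of 0.560. This comparison was added after the data were seen, and the ratio has no interval. The rates elsewhere rest on only 2 peaks for stretches of 6 to 10 genes and 13 peaks for 11 to 15 genes. The 256 window genes in stretches with 1 to 5 genes had no counterpart and were left out of the comparison.

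**Figure D2:**
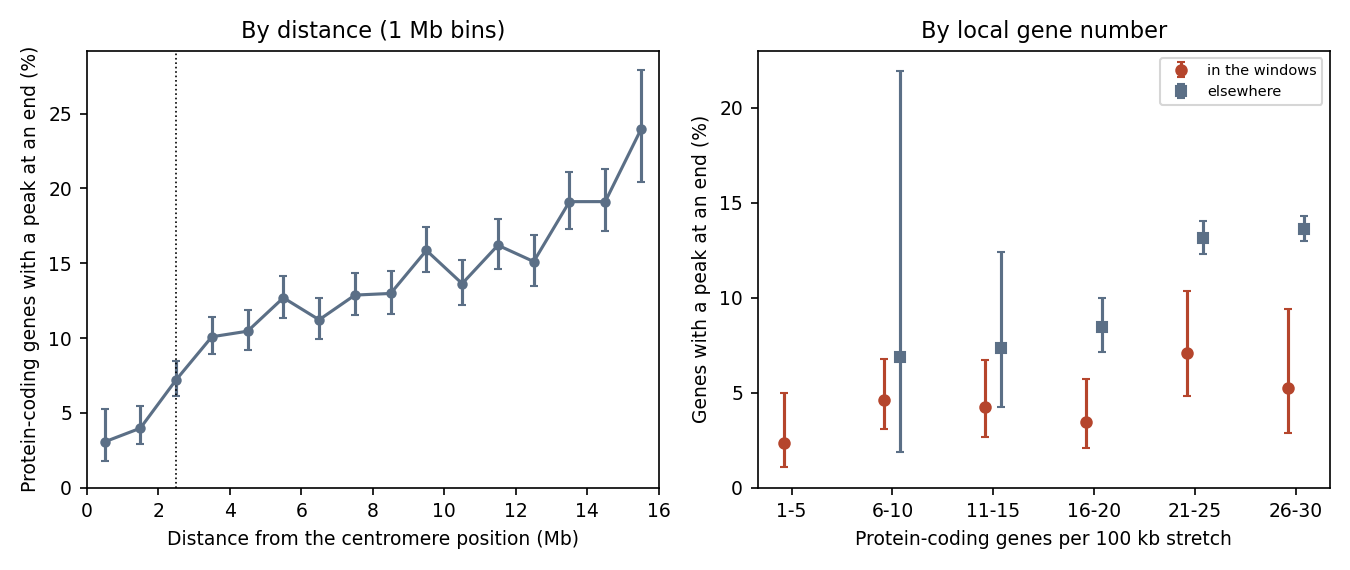
Left, share of protein-coding genes with a peak at an end in bins of 1 Mb of distance from the centromere position, with the window edge dotted; right, the same share by the number of protein-coding genes per 100 kb, in the windows (red) and elsewhere (grey-blue), up to 30 genes. Bars are 95% Wilson intervals; the share runs from 3.07% in the first bin to 23.9% in the last, and the red points lie below the grey-blue ones in each class that has both.

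Window genes were shorter, with a median of 1602 bp against 2106 bp, and fewer carried a symbol besides their locus code (25.6% against 38.8%). The share with a peak was lower in the windows in each length class, from 1.35% against 7.82% of genes under 1000 bp to 9.73% against 19.5% of genes of 4000 bp or more. Among genes with a symbol, 50 of 548 in the windows had a peak (9.12%, 6.99 to 11.8%) and 16.2% elsewhere did. Among those without a symbol the shares were 2.82% and 12.2%. The gap was therefore wider for genes without a symbol. Peaks per gene with a symbol, counting only peaks nearest to such a gene, gave a ratio of 0.772 (exact interval 0.588 to 0.998).

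Long stretches had no peak at all. The stretch that held the centromere position was 1.82 Mb long on chromosome 1 (14161597 to 15976845), 1.22 Mb on chromosome 2 (3527672 to 4742992), 1.70 Mb on chromosome 3 (13047505 to 14750984), 1.27 Mb on chromosome 4 (2804632 to 4074624) and 1.70 Mb on chromosome 5 (10862274 to 12565543). These 5 stretches held 205 protein-coding genes and 1285 pseudogenes. The longest stretch between 2 peaks that both lay outside the windows was 0.373 Mb, and 20 stretches with a window peak on at least 1 side were longer. On chromosome 2, the 0.544 Mb from 2983652 to 3527356 held 110 protein-coding genes and no peak. The mitochondrial insertion named above for this chromosome was not located here. How many of the 110 genes belong to it was not checked. No source used here says how reads that map to several places were treated, and its part in these empty stretches was not tested.

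The peak closest to a centromere position was that of MCM5, a subunit of the replicative helicase, 0.0725 Mb from the position on chromosome 2 (3527357 to 3527671, score 69.2). On chromosome 4 it was that of RAP2.9, an AP2-type transcription factor gene, at 0.175 Mb with a score of 7.83. On the others the closest peaks lay farther out, at AT3G32040 (0.653 Mb, score 16.9), GME (an enzyme of ascorbate synthesis, 0.838 Mb, 11.7) and GLR3.3 (a glutamate receptor-like channel, 0.877 Mb, 13.9). MCM5 was thus the one peak of the 5 with a score above 20.

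Scores in the windows were close to those elsewhere. The score is the authors' number per peak, and no source used here gives its formula. It ranged from 4.24 to 568.1 in the windows, with a median of 19.7 (interval 15.7 to 21.4) and quartiles of 12.1 and 27.8. Elsewhere the median was 17.2 (16.6 to 17.7) and the quartiles were 11.98 and 28.57. Of the 106 peaks, 26 (24.5%) were among the 733 with the highest scores, which make up 25.0% of all peaks by construction. A score of at least 70 was reached by 10 (9.43%), against 9.04% of all peaks. The lower number of peaks thus went with a like spread of scores. In narrower windows of 1.5 Mb to each side the median was 15.5 against 17.4 elsewhere, so the order of the medians turned.

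Distances to genes were also alike. The midpoint of 79 of the 106 peaks (74.5%, Wilson interval 65.5 to 81.9%) lay within 500 bp of an end of a protein-coding gene, against 77.3% of all peaks and 77.5% of those elsewhere. The median distance was 165.5 bp in the windows (interval 121.5 to 258 bp) and 152 bp elsewhere (142.5 to 164 bp). The sequence itself differed far more, since 14.3% of the positions in the windows and 40.9% of those elsewhere lay that close to a gene end. Divided by these shares of sequence, the shares of peaks gave ratios of 5.22 in the windows and 1.89 elsewhere. With the shares of peaks so close, these ratios differ mainly through the sequence. With genes of all kinds the share of peaks within 500 bp was 84.0% in the windows and 81.1% elsewhere, and the order turned.

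**Figure D3:**
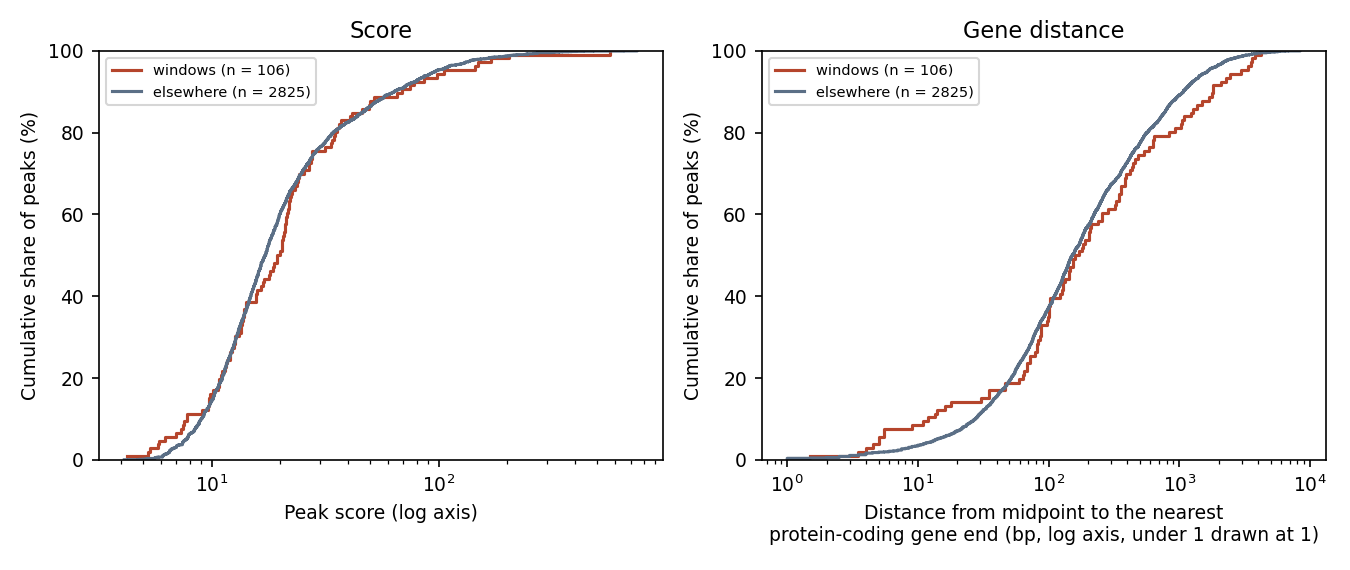
Cumulative share of peaks by score (left, log axis) and by distance of the midpoint from the nearest protein-coding gene end in bp (right, log axis), for the 106 peaks in the windows (red) and the 2825 elsewhere (grey-blue). The curves run close together, with medians of 19.7 and 17.2 for the score and 165.5 and 152 bp for the distance, and the red distance curve lags above about 500 bp.

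By position, 34 peaks in the windows (32.1%) lay inside a protein-coding gene within 200 bp of an end, 29 (27.4%) outside within 500 bp, 23 (21.7%) deeper inside a gene, 6 (5.66%) at 500 to 1000 bp and 14 (13.2%) farther than 1000 bp from any protein-coding gene. Elsewhere the shares in the same order were 33.8%, 31.1%, 21.5%, 5.91% and 7.65%. Sequence over 1000 bp from a protein-coding gene made up 71.1% of the windows and 13.4% of the rest. Such sequence held fewer midpoints than its length in both, with ratios of 0.186 and 0.572. Pseudogenes covered 31.6% of the windows and held 2 of the 106 midpoints (1.89%, 0.519 to 6.62%), in AT2G14220 and AT3G43690, with scores of 10.7 and 13.5. Elsewhere pseudogenes covered 2.71% of the sequence and held 5 of the 2825 midpoints (0.177%, 0.0756 to 0.414%). The ratios to their length were 0.0596 and 0.0654, but counts of 2 and 5 peaks are too few to compare them.

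**Figure D4:**
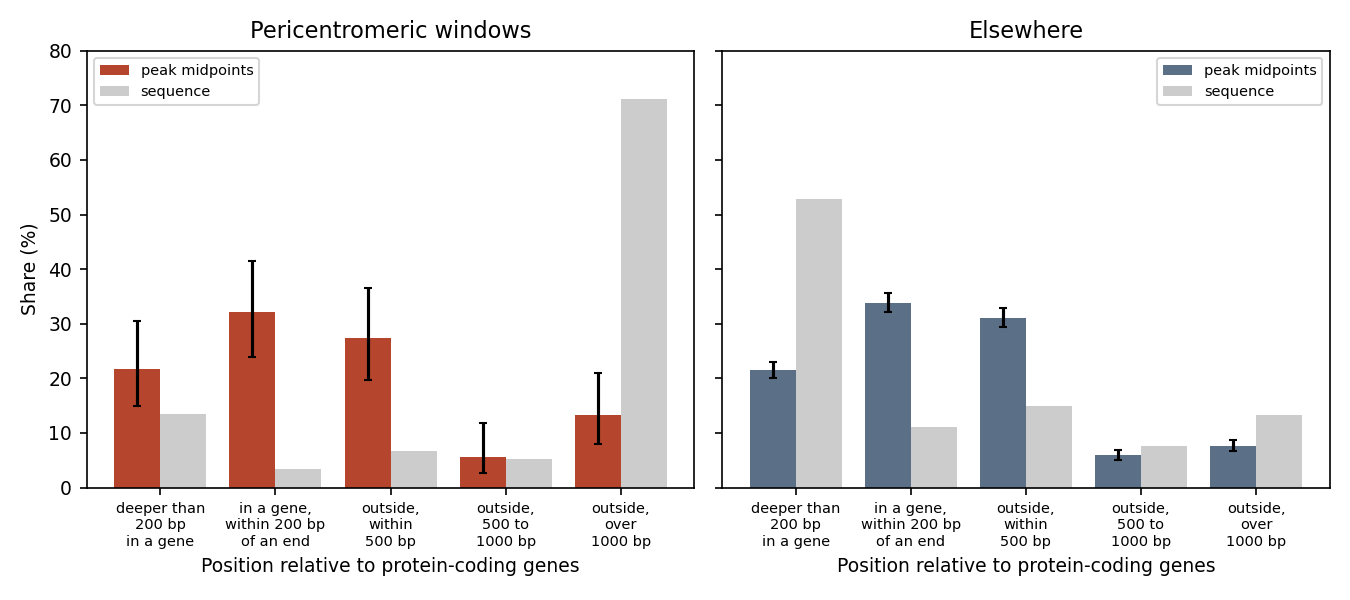
Share of peak midpoints (coloured bars, with 95% Wilson intervals) and of sequence (grey bars) in 5 classes of position relative to protein-coding genes, in the windows (left) and elsewhere (right). The coloured bars are similar in both panels, 32.1% and 33.8% just inside gene ends, while the grey bar for sequence over 1000 bp from a gene rises from 13.4% to 71.1%.

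Of the 14 peaks over 1000 bp from a protein-coding gene, 9 were within 1000 bp of another kind of gene. Elsewhere 216 peaks were that far from a protein-coding gene, and 156 of them were that far from any gene. With genes of any kind, 4.72% of the peaks in the windows (5 of 106) and 5.52% elsewhere were over 1000 bp away. The strongest of the 14, with a score of 149.55, lay on chromosome 1 from 17580037 to 17580571. It was 4212 bp from AT1G47765 and 173 bp from the long noncoding RNA gene AT1G07413. The other 13 had scores under 22. The next farthest lay 3771 bp from AT1G44940 (score 15.7) and 3572 bp from EXO (11.5).

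The highest score in the windows belonged to CYCA1;1, an A-type cyclin of mitosis, and was the third highest of all 2931 peaks (568.1; chromosome 1, 16777037 to 16777656). Its midpoint lay 5.5 bp inside an end of the gene. AT2G07170 followed with 204 (chromosome 2, 2974686 to 2975221) and AT4G09060 with 171 (chromosome 4, 5800133 to 5800615). The gene table gives no symbol for either.

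After the peak near AT1G47765 came one inside MSS1, a hexose transporter also called STP13, 1801 bp from its nearest end (score 145; chromosome 5, 9244977 to 9245421). MCM2, another subunit of the replicative helicase, had a score of 105 (chromosome 1, 16970037 to 16970401). ATK5, a kinesin of the spindle, had 98.8 (chromosome 4, 2674956 to 2675460). These were at the genes themselves, 5 bp and 144 bp inside an end of MCM2 and ATK5. AT3G44050 followed with 86.1 (chromosome 3, 15818412 to 15818866) and TPR3, a corepressor of the TOPLESS family, with 77.9. The last of the 12 were AT5G36000 with 74.7, MCM5 with 69.2 and RbcX1, a chaperone of Rubisco assembly, with 65.4. Of these 12 peaks, 9 lay within 200 bp of a gene end. The nearest gene of 5 of the 12 was on a list of cell cycle genes, and of the other 94 peaks 5 had such a nearest gene.

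Those 6 lists held 159 loci, of which 16 lay in the windows. At an end of 10 of the 16 there was a peak (62.5%, Wilson interval 38.6 to 81.5%), against 4.43% of all window genes. Elsewhere 95 of the 143 other loci had one (66.4%, 58.4 to 73.7%). The intervals of these shares overlapped, but 16 loci are too few to show that the shares are alike. The median of the highest score per gene was 59.4 for the 10 and 52.5 for the 95, beside 20.8 for all genes with a peak in the windows. The lists were written with results of these data known. Neither their high share nor its closeness in the windows and elsewhere is therefore independent evidence.

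Among the genes of G2/M and mitosis, CYCA1;1, CYCA3;2 (21.3) and CYCA3;4 (13.5) had a peak. CYCA3;3, which lies between the latter in a tandem of A3-type cyclin genes, and MIS12, a kinetochore gene, had none. Of the genes of cytokinesis and kinesins, ATK5, AT3G44050 and AT5G33300 (25.6) had a peak and TES, a kinesin of cytokinesis after male meiosis, had none. Of the replication genes, MCM2, MCM5 and AT3G42660 (33.6) had one and RFC3 (EMB2775 in the gene table), a subunit of the clamp loader, had none. ALY1, a homologue of a subunit of the DREAM complex in animals, had a peak with a score of 49.6, 5.5 bp outside the gene. CYCD6;1, a D-type cyclin, and HTA7, a histone H2A variant gene, had none. A share of 0 of 1 gene in these last lists says little.

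Some genes were nearest to several peaks, and 3 genes were nearest to 3 each. A peak counts here for the gene with the nearest end, whether or not it touches that end. The 3 peaks at NIA2, for example, lay deeper inside the gene and touched no gene end. NIA2, which encodes nitrate reductase, had 3 peaks with scores of 33.8, 18.1 and 5.36 and widths of 649, 1212 and 226 bp. UBQ10, a polyubiquitin gene, also had 3, with scores of 26.9, 22.3 and 7.32 and widths of 333, 1495 and 310 bp. The middle UBQ10 peak (chromosome 4, 2718470 to 2719964) was the widest of all 2931 peaks. MGDC, an enzyme of galactolipid synthesis, had 3 narrow peaks of 202 to 239 bp with scores of 9.75 to 14.2. Of the 106 peaks, 2 (1.89%) were wider than 1000 bp, against 0.307% of all peaks, and both belonged to these genes.

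**Figure D5:**
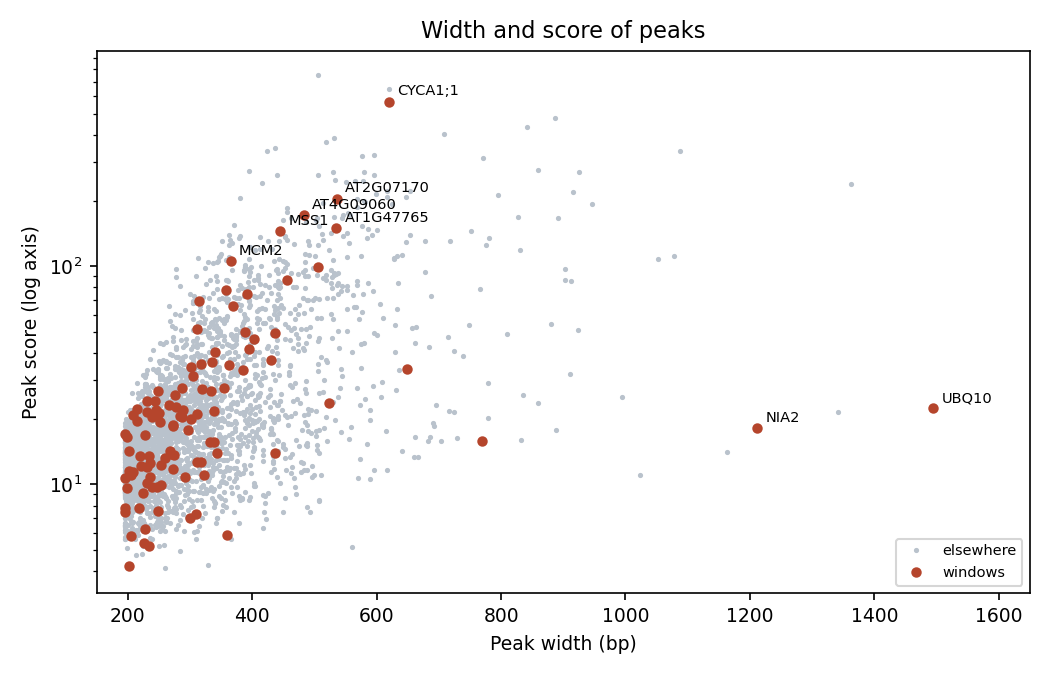
Score (log axis) against width in bp of the peaks in the windows (red, n = 106) and elsewhere (grey, n = 2825); the peaks in the windows with a score of at least 100 or a width over 1000 bp carry the name of the nearest protein-coding gene. CYCA1;1 stands highest at 568.1, while UBQ10 (1495 bp) and NIA2 (1212 bp) are wide with scores of 22.3 and 18.1.

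Over all nearest genes, 9 of 94 in the windows (9.57%) were nearest to 2 or more peaks and 3 (3.19%) to 3 or more, against 8.70% and 1.40% elsewhere. Some of these peaks lay far from the gene, as at EXO, where they were 1219 and 3572 bp outside it. The median width of a peak was 276.5 bp in the windows and 275 bp elsewhere. Peaks of 400 bp or more made up 15.1% of the former, with a median score of 47.9, and 18.4% of the latter, with 45.8. The wider peaks thus had the higher median score in both. Among the peaks over 1000 bp, low scores like those at NIA2 and UBQ10 also occurred elsewhere, at GAE1 (1341 bp, 21.4), LBD41 (1164 bp, 14.1) and PEN3 (1024 bp, 11.1), 3 of the 7 such peaks there.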

How the data were processed

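Chromatin of MYB3R3-GFP seedlings was precipitated with an anti-GFP antibody, per the labels. The submitters' processing notes name Bowtie 0.12.7, SAMtools 0.1.18, MACS2 and the build TAIR10, with no role for each. The file that the authors deposited gives a chromosome, start, end, name and score per peak. No source used here gives the peak threshold, the formula of the score, the use of the input or the read depth. Starts in the file were read as 0-based and are printed 1-based.

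Gene names and distances came from a RefSeq table of TAIR10.1 with 27444 protein-coding genes on 5 chromosomes, whose coordinates are not printed. Without a shift 77.3% of all peaks and 74.5% of those in the windows lay within 500 bp of a gene end. With the peaks shifted by 4000 to 5000 bp the medians were 40.8% and 30.2%. A position was sampled every 100 bp for shares of sequence, and the largest gene end stood for the chromosome length. Strand, exons and sequence were not used, so the planned motif comparison was not run.

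Shares have Wilson intervals, medians binomial intervals and ratios of densities exact (Clopper-Pearson) intervals, all at 95%. A share of 0 has the limit that 3 counts give. The code was tested on simulated peaks. Named genes are those nearest to the 12 highest peaks, the highest and closest peak of each chromosome, the peaks at the edges and the 3 farthest from genes, every list member in the windows, and genes with several peaks; any other name was chosen after seeing its value. The members and lists were chosen with earlier results of these data known. Alternatives were other window widths, score filters, gene sets, peak edges, gene-end windows and leaving out a chromosome. Calculations ran under Python 3.11.15. Tables were handled with NumPy 2.4.6 and pandas 2.3.3, intervals came from SciPy 1.17.1, and figures from matplotlib 3.10.9.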

Additional observations from a re-analysis of the deposited data

How the results depend on the processing

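Of 75 recomputed values, 57 stayed within the 95% interval of the reported value (counts within 1.5 times) and 18 did not, and 4 of the 75 were added after the data were seen. The density ratio of 0.443 was below 1 in all 14 alternatives, from 0.189 to 0.772. It was 0.577 with windows of 3.5 Mb, 0.189 with genes of all kinds, 0.772 with genes that have a symbol and 0.560 in stretches of like gene number. The share of window genes with a peak was 6.72% with windows of 3.5 Mb (14.2% elsewhere), 2.66% with the 1467 highest-scoring peaks (7.63%), 1.21% with the 733 highest (4.21%), 2.11% with genes of all kinds (13.0%), 5.88% with 2000 bp outside each end (17.9%) and 9.12% with genes that have a symbol (16.2%). With windows of 1.5 Mb the median score was 15.5. The share within 500 bp of a gene end was 84.0% with genes of all kinds. The median distance was 102 bp with the 733 highest-scoring peaks (103 bp elsewhere) and 16.5 bp from peak edges (11.0 bp). The number of peaks was 40 and 285 with windows of 1.5 and 3.5 Mb, and 59 and 26 among the 1467 and 733 highest-scoring peaks. Fewer peaks, other genes or other windows enter these by construction, and another cause was not tested. Without chromosome 4 the density ratio was 0.387, and the median distance was 144 bp against 158 bp elsewhere. No paired analysis was possible because the peak list rests on 1 ChIP library, and for the same reason no library could be left out. Without a known depth, binding weaker than the peak threshold was not detectable, and peaks in repeats depend on a read mapping not given here.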

Other observations

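The genes in this paragraph were chosen after their values were seen from among the nearest genes of the 106 peaks, stand for no group, and are not shown to be bound or regulated. Beside the listed cell cycle genes, MCM9 (score 31.5) and ATK4, a kinesin gene (36.4), were nearest to a peak within 100 bp of an end. AT4G10270 was nearest to 2 peaks, the higher with a score of 40.6. LHCB2.1, which encodes a light-harvesting protein, had 13.9, and ATPD, a subunit of the chloroplast ATP synthase, had 12.5. NIT1, a nitrilase, had 21.3, and APR1, an adenylylsulphate reductase, had 9.67. WOX4, a homeobox gene, had 20.5, with the peak 1026 bp outside the gene.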
